A study of Mus musculus with 12 samples.

Results

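In sorted hematopoietic stem cells (HSCs) of the mouse, 128 of 22548 measured genes differed from aged HSCs in the same direction and by at least 3 log2 units both in young HSCs and in aged HSCs treated with CASIN. They were chosen by the mean of 4 young, 5 aged and 3 CASIN-treated libraries: 19 genes were at least 3 units higher than aged in both groups (0.0843% of all genes), and 109 genes were at least 3 units lower in both (0.483%). These numbers depend on the scale: centring on genes detected in all samples gave 58 higher and 53 lower genes, which turns the balance, and a pseudocount of 0.1 gave 173 and 306. Both differences share the 5 aged libraries, and the values that chose the genes are given here as a description, with no test. The pattern was held most evenly by a pair of long non-coding RNAs on the higher side, Kcnq1ot1 and 2700054A10Rik, and by the ubiquitin ligase gene Rnf122 on the lower side.

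All mice were C57BL/6, 2 to 4 months old in the young group and 20 to 26 months old in the aged groups, and the cells were sorted as long-term HSCs (LT-HSCs). Cells of all 3 groups spent 16 h at 37 °C in HBSS with 10% FBS, under 3% O2, with 5 µM CASIN in the treated group alone, so no library shows HSCs straight from the marrow. Young mice came from 1 supplier and aged mice from several stocks, and no CASIN-treated young library was analysed here. The labels give at least 200 cells per library and the study's methods a larger pool, with a kit meant for single cells, and nothing in the labels says which libraries shared mice.

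Long-term HSCs sit at the top of blood formation and keep the system supplied through self-renewal. With age they become more numerous but regenerate blood less well and produce more myeloid cells. Cdc42 is a small GTPase that organizes cell polarity. Its activity is raised in aged HSCs, and CASIN is a small molecule that lowers this activity. The comparison asks which genes set both young and CASIN-treated cells apart from aged cells, and on the same side.

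Printed first are promoters of some members that stayed among the chosen genes whichever library was left out. They were taken from those that differed most from aged, since these genes carry most of what follows. Each runs 5′ to 3′ on the strand of its gene, from 250 bases before to 50 bases after a listed RefSeq start (GRCm38, the build called mm10). That start is not always the outer end of the gene. The windows of Hnrnpk and Pla2g4c lie inside the RefSeq spans of these genes (58391132 to 58403343 and 13311507 to 13360674). Capitals mark CCAAT, the box read by the factor NF-Y, and GGGCGG, the GC box read by Sp1, on either strand, so that ATTGG and CCGCCC are marked too. Not every such member is shown. Rnf122 and Pcmtd2 have no promoter entry, and the window of Pdha2, not printed, holds 0 CCAAT and 0 GC boxes. The windows are chr7:143296498-143296797 on the minus strand for Kcnq1ot1, chr17:13554045-13554344 minus for 2700054A10Rik, chr13:58402068-58402367 minus for Hnrnpk, chr2:155074448-155074747 minus for Ahcy and chr7:13325417-13325716 plus for Pla2g4c.
Kcnq1ot1: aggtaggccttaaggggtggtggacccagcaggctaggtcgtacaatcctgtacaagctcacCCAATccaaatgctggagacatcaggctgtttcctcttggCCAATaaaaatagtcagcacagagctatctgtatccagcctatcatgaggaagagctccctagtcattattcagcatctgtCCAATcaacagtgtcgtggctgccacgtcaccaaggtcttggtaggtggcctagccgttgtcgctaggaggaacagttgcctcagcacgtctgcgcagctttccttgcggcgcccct
2700054A10Rik: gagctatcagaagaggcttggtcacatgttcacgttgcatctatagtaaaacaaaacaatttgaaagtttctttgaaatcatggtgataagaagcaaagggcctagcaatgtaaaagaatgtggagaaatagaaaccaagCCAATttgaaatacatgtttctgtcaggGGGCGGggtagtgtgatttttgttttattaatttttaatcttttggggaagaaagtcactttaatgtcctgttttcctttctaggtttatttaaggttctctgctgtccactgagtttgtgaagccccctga
Hnrnpk: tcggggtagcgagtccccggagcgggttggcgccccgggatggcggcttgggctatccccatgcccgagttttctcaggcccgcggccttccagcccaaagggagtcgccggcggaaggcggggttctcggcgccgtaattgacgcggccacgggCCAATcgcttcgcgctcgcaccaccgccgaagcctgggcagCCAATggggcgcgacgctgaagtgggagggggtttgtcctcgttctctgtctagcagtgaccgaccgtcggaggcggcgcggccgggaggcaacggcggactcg
Ahcy: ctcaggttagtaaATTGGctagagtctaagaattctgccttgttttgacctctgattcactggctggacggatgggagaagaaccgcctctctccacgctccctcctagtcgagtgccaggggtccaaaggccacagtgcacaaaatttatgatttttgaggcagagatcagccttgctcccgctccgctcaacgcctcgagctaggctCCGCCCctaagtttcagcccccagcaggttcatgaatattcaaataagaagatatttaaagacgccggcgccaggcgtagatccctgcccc
Pla2g4c: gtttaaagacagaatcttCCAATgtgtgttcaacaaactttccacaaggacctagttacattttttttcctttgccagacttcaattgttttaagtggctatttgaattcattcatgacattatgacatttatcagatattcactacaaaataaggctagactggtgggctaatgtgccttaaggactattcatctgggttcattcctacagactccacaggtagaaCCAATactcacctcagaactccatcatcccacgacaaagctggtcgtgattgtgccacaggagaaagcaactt

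The Kcnq1ot1 window holds 3 CCAAT boxes, a number reached or passed by 704 of 17479 measured genes with a promoter entry (4.03%). Over all members the boxes were as frequent as elsewhere. CCAAT was in 6 of 15 promoters of the higher genes (40.0%), in 31 of 80 of the lower genes (38.8%) and in 38.8% of all, and the GC box was in 60.0%, 46.3% and 47.5%. A letter match is neither a bound site nor a cause.

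The authors deposited log2 expression values brought to one distribution by quantile normalization. The read depth is unknown, so no counting error can be given. Genes standing above their library's lowest value numbered 6078 to 9673 in young, 11463 to 17621 in aged and 6845, 20013 and 7288 in CASIN 1, 2 and 3. CASIN 2 thus stood apart from the other CASIN libraries. Genes at a log2 value of at least 3, the level used below for a gene that is clearly listed, made up 27.0% to 32.2% of each library. Genes that every cell uses were also at the lowest value in many libraries: of 12 housekeeping genes this held for 2 to 7 in young, 2 to 5 in aged and 1 to 4 in CASIN-treated libraries. A gene at the lowest value is therefore only said to be listed there. Below a value of 3 were 2 to 8 of the 12 housekeeping genes in young, 6 to 9 in aged and 3 to 5 in CASIN-treated libraries. At that level the housekeeping genes lay on the same side as the higher members, and what this means for the members was not tested. Fewer cells expressing a gene and less RNA per cell cannot be told apart in these bulk samples. Of 10 LT-HSC marker genes, 3 to 6 reached a value of 3 in young, 2 to 4 in aged and 4 to 5 in CASIN-treated libraries, and no member is on a marker list. Of the 8 markers of stroma or endothelium, 1 to 3 reached 3 in young, 3 to 6 in aged and 2 to 5 in CASIN-treated libraries, with summed log2 values of 11.02 to 27.9 in young, 24.5 to 36.5 in aged and 17.9 to 32.2 in CASIN-treated libraries. Among them Cdh5 was at the lowest value in 3 young, 0 aged and 1 CASIN-treated libraries, Col1a2 in 4, 1 and 2, Cxcl12 in 2, 0 and 2, Kdr in 2, 0 and 1, Pecam1 in 2, 1 and 1, and Lepr in 1, 0 and 0. Col1a1 (1, 2 and 2) and Vcam1 (2, 2 and 2) did not follow that order. Of all genes, 12875 to 16470 were at the lowest value in young and 4927 to 11085 in aged libraries. In CASIN 1, 2 and 3 there were 15703, 2535 and 15260. Fewer genes at the lowest value in aged than in young libraries is thus not particular to these markers. The summed marker values were on the same side as the lower members, and their part in the result was not tested.

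**Figure D1:**
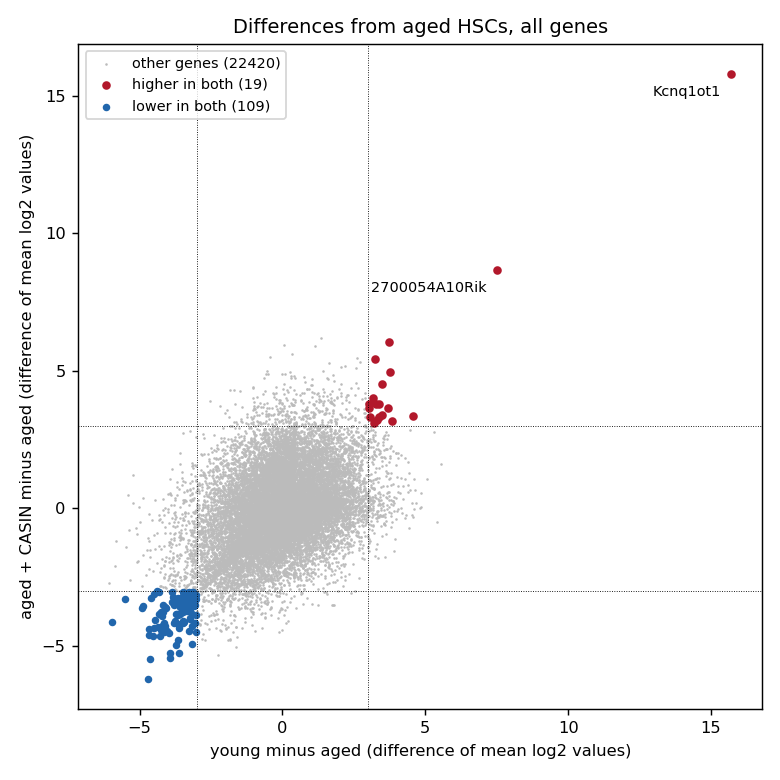
Difference from aged HSCs of the mean log2 value in young (x axis) and aged CASIN-treated HSCs (y axis) for all 22548 genes, 1 point per gene, with dotted lines at the limits of 3 and -3. The 19 genes higher in both are red, the 109 lower in both are blue, and Kcnq1ot1 and 2700054A10Rik lie far from every other gene at the upper right.

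Taken singly, 300 genes were at least 3 units higher and 481 at least 3 units lower in young than in aged, and 385 and 374 in CASIN-treated than in aged. The 19 higher members had a median difference of 3.39 in young and 3.79 in CASIN-treated HSCs, beside -0.02 and -0.04 over all genes. The 109 lower members had a median of -3.57 in both. Standard errors of the differences, from a limma fit over all genes, ran from 0.29 to 1.93 for young minus aged (median 1.29 for the higher and 1.25 for the lower members). Most members thus lay close to the limit relative to their error. Just inside it were Fbxo41 (3.02 in young, 3.65 in CASIN) and St3gal2 (3.03, 3.79) on the higher side and Asic4 (-3.01, -3.29) and Klhl29 (-3.02, -3.89) on the lower side. Just outside were Zic4 (2.96, 3.63) and Ccnd2 (3.10, 2.95), and Zfand1 (-3.62 in young) and Clptm1 (-3.11 in young), whose CASIN differences missed -3 by less than 0.01.

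**Figure D2:**
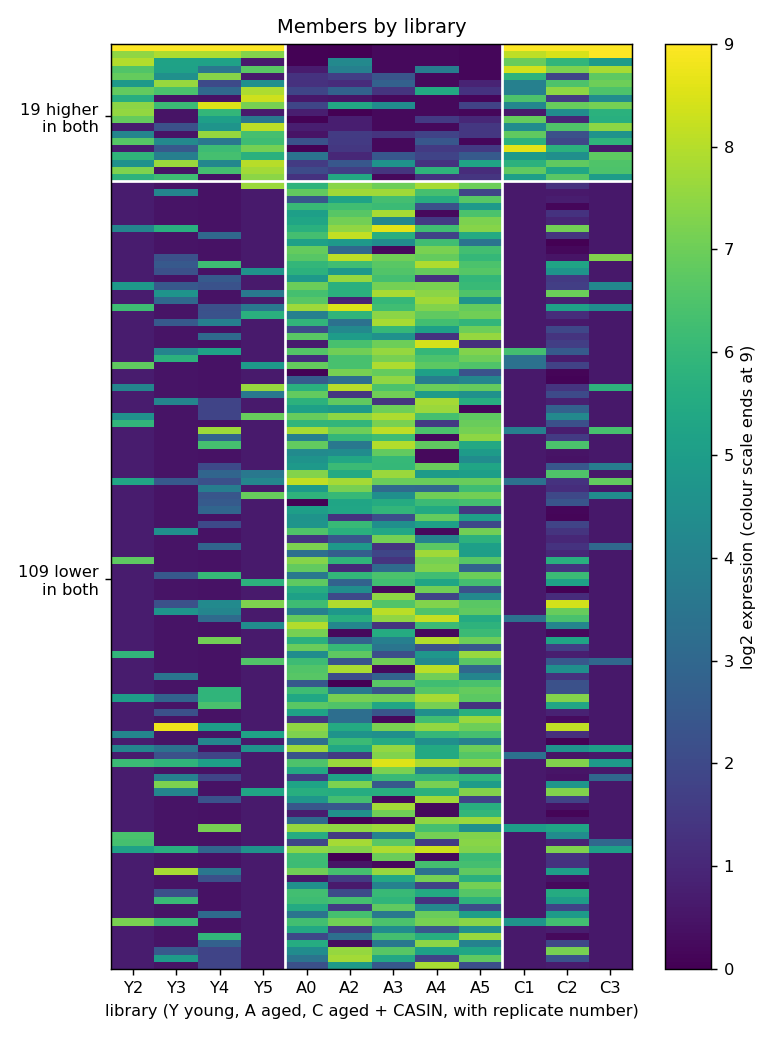
Log2 values of the 128 members (rows, sorted within each block by the smaller of their 2 differences) in the 12 libraries (columns). The 19 higher genes are bright in most young and CASIN columns, the 109 lower genes in most aged columns, and CASIN 2 shows more of the lower genes than CASIN 1 and CASIN 3.

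Kcnq1ot1 is the long RNA made antisense to the channel gene Kcnq1 from the paternal chromosome, where it silences neighbouring imprinted genes. It lies on chromosome 7 from 143203458 to 143296549, on the minus strand (GENCODE M21), wholly as 1 exon of 93092 bases. Its log2 value was 15.61 in young 2, 15.93 in the other young and in all 3 CASIN-treated libraries, and the lowest value, 0.02 to 0.23, in all 5 aged libraries. The recurring 15.93 is the second value from the top that quantile normalization gives to each library, and young 2 held the third. The groups did not overlap, with a gap of 15.38 log2 units. The differences from aged were 15.71 (SE 0.29) in young and 15.79 (SE 0.31) in CASIN-treated HSCs. Its host gene Kcnq1 was at the lowest value in 11 of 12 libraries and at 0.90 in CASIN 2. Of the other genes of the domain, Phlda2, a placental growth restrainer, was at the lowest value in 11 libraries, and Cdkn1c, a cell cycle inhibitor used by quiescent HSCs, was at or below 1.36 in all 12. Of the 13 listed genes of the domain, Kcnq1ot1 included, 2 to 4 reached a value of 3 in young, 0 to 3 in aged and 2 to 6 in CASIN-treated libraries. The use of strand in the counting is not given in the sources used here, so reads of Kcnq1ot1 and of Kcnq1 introns cannot be told apart.

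2700054A10Rik, typed in GENCODE as a long intergenic RNA of chromosome 17 (13482553 to 13668891, minus strand) with no function assigned here, showed the same division at a lower level. It was at 7.51, 7.89, 7.88 and 7.34 in young 2 to 5, at 8.10, 8.46 and 9.86 in CASIN 1 to 3, and at the lowest value in every aged library. The groups were 7.11 units apart. Its differences were 7.51 (SE 0.40) and 8.67 (SE 0.44). It ranked between 98 and 1273 from the top in the young and CASIN-treated libraries. RefSeq places the 5′ end of this gene at 13554094, and the printed window follows RefSeq, so it lies inside the GENCODE span. On the opposite strand of the GENCODE span lie Gm16050, Gm8603 and Smok4a, so the limit on strand given for Kcnq1ot1 holds here too. Kcnq1ot1 and 2700054A10Rik were the sole genes of all 22548 that were at 3 or more in every young and CASIN-treated library and at the lowest value in every aged one.

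Rnf122 encodes a RING-type ubiquitin ligase on chromosome 8 (31111820 to 31131482, plus strand). It was at 5.13, 4.89, 4.37, 6.23 and 3.48 in aged 0, 2, 3, 4 and 5 and at the lowest value in all young and CASIN-treated libraries. The gap was 2.81 units, and the differences were -4.26 (SE 0.51) and -4.42 (SE 0.56). No other gene was at 3 or more in all aged libraries and under 3 in all others.

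In the limma fit, these 3 genes were the members with an adjusted p under 0.05 (Benjamini-Hochberg over all genes) in young against aged, where 4 genes passed in all (0.0177%), and again in CASIN-treated against aged, where 5 passed (0.0222%). The members were selected on these very contrasts, so nothing is read from the counts. Over 19 alternatives of the fit, Kcnq1ot1 kept both calls in every one, and 2700054A10Rik lost its CASIN call with the replicate block alone. Rnf122 missed the threshold in 12 alternatives in each contrast, 10 of them shared: centring, both filters on low values (a mean of at least 3 leaves it out of the fit), a pseudocount of 0.1, the block, and the fits without young 2, young 3, aged 0, aged 2 or aged 3. Of the 19 higher members, 3 had all young and CASIN-treated values above all aged ones, beside 2.38% of all genes. That background turns on values near the bottom of the scale, where the lowest value differs between libraries (higher in young and CASIN 1 and 3 than in aged, and 0 in CASIN 2). With 1 common lowest value the 536 such genes became 8. Besides the pair of long RNAs, the member was Kcnk1, a potassium leak channel, at 3.88 to 6.35 in young, 4.48 to 6.75 in CASIN-treated and 0.995 to 3.48 in aged libraries. Of the 109 lower members, 21 were below all aged values in every young and CASIN-treated library, beside 0.248% of all genes.

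**Figure D3:**
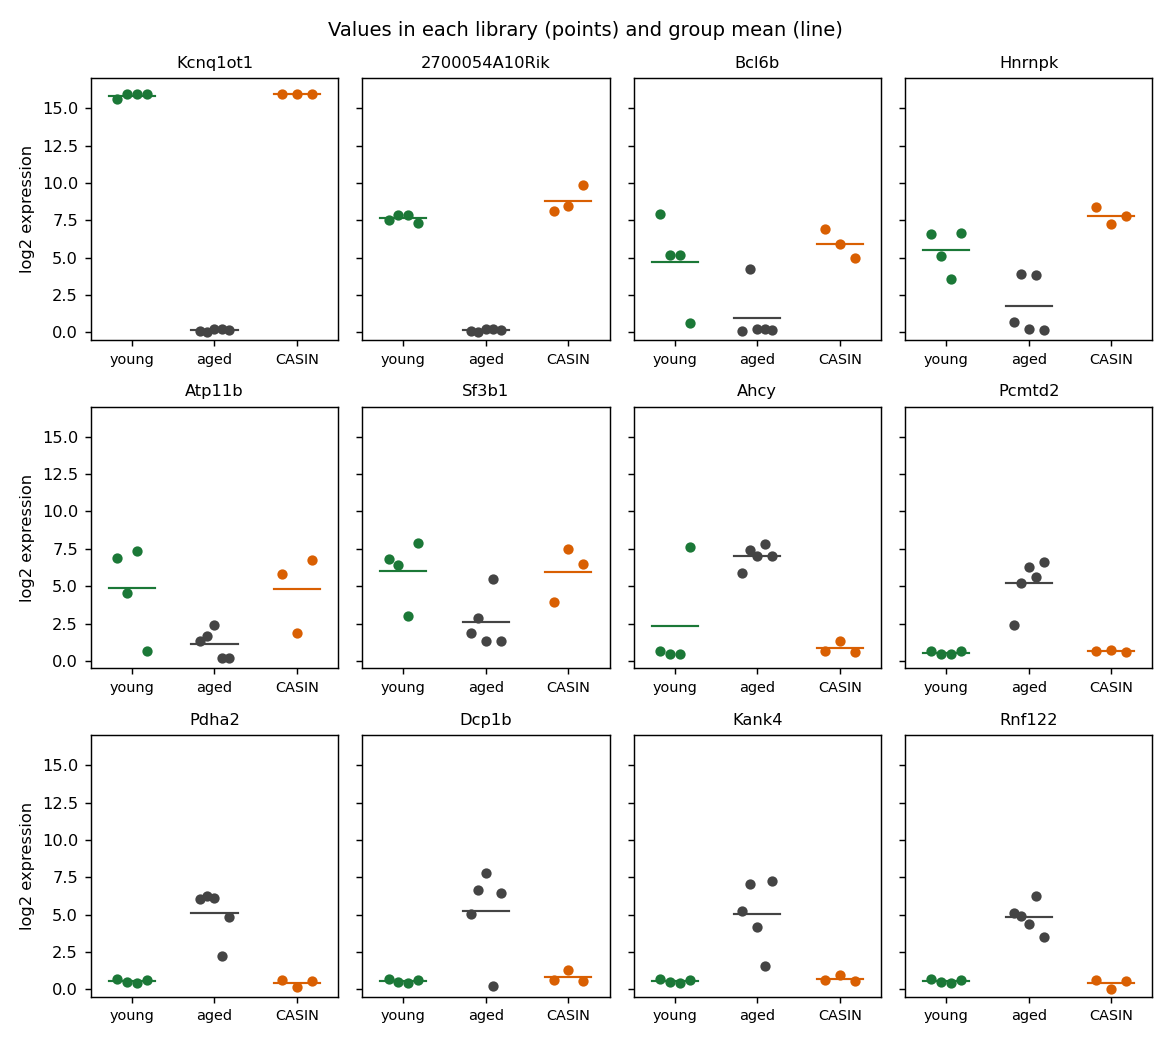
Log2 value of 12 members in each library (points, by group) with the group mean (line), 6 genes higher in both first. Kcnq1ot1, 2700054A10Rik and Rnf122 show no overlap at the level of 3, whereas Bcl6b, Hnrnpk, Atp11b, Ahcy and Dcp1b each have a library on the other side.

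Roles were assigned to the members after they were known and serve only to order them. Genes outside the members were given no role, so the size of a role group is not read as a result. Counts without overlap within a role group stand beside 21 of 109 over all lower members. Among the higher genes, 4 act on RNA and translation. Hnrnpk, an abundant binder of pre-mRNA, was at 6.56, 5.15, 3.58 and 6.69 in young, 8.37, 7.23 and 7.81 in CASIN-treated and 0.67, 3.92, 0.23, 3.82 and 0.16 in aged libraries. Aged 2 and 4 overlapped the lowest young library. Its difference from aged was 3.73 (SE 0.999) in young and 6.04 (SE 1.09) in CASIN-treated HSCs. Sf3b1, a core protein of the spliceosome that is often mutated in clonal blood disease, was at 3.03 to 7.90 in young, 3.92 to 7.46 in CASIN-treated and 1.32 to 2.85 in 4 aged libraries, with 5.48 in aged 4. The nucleolar protein gene Nol7 and the mitochondrial ribosomal gene Mrpl43 were each at the lowest value in young 3 and below 3 in CASIN 2, so both were high in 5 of 7 libraries.

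Among transcription factors, Bcl6b, a repressor related to Bcl6, was at 7.96, 5.19 and 5.15 in young 2 to 4 but at the lowest value in young 5. It was at 6.93, 5.92 and 4.99 in CASIN-treated libraries and at the lowest value in 4 aged libraries, with 4.22 in aged 2. Hsf5, of the heat shock factor family, was uneven in young (0.67, 2.22, 4.65 and 8.12) and higher in CASIN 1 to 3 (4.37, 6.52 and 7.48), against at most 1.46 in aged. The nuclear receptor gene Nr2e1 was at 4.15 to 8.02 in young and 5.78 to 6.79 in CASIN-treated libraries, with 2 aged libraries above 3.

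Among signalling genes, Iqsec1, an exchange factor for the small GTPase Arf6, was at 6.15 to 8.53 in young and 4.15 to 7.14 in CASIN-treated libraries, with aged 2 and 3 at 5.40 and 4.37. Slc6a14, an amino acid transporter, was at 7.56 and 5.96 in young 2 and 4 and at the lowest value in young 3 and 5. It was at 0.63, 4.37 and 5.74 in CASIN-treated and at most 0.75 in aged libraries. The mean of Slc6a14 in young thus rests on 2 of 4 libraries.

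Other higher genes were Atp11b, a flippase that moves phospholipids across membranes, St3gal2, a sialyltransferase, Fbxo41, an F-box protein, Mast2, a kinase bound to microtubules, and Eddm3b, an epididymal protein. Over the 19, 8 were at 3 or more in all 4 young libraries, 12 in all 3 CASIN-treated libraries and 7 in all of these. In aged libraries 11 were below 3 throughout.

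Among the lower genes, those of metabolism and lipids had the largest median differences of the role groups, -4.08 in young and -4.54 in CASIN-treated HSCs over 10 genes. Ahcy, the hydrolase that clears S-adenosylhomocysteine and so keeps methyl transfer running, was at 5.86, 7.40, 7.02, 7.83 and 7.02 in the aged libraries. It was at the lowest value in young 2, 3 and 4 and in CASIN 1 and 3, at 1.30 in CASIN 2, and at 7.65 in young 5. Young 5 therefore lay within the aged values. Its differences were -4.72 (SE 1.33) and -6.19 (SE 1.45).

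Pla2g4c, a phospholipase A2, was at 6.82, 7.73, 7.71 and 6.35 in aged 0, 2, 3 and 4 and 1.84 in aged 5. It was at 4.09 in young 3 and below 0.70 in every other young or CASIN-treated library. Pdha2, the form of a pyruvate dehydrogenase subunit known from testis, was at 6.07, 6.22, 6.15, 2.23 and 4.85 in aged libraries, against at most 0.67 elsewhere. Pcmtd2, of the isoaspartate methyltransferase family, did not overlap either, at 2.40, 5.23, 6.32, 5.61 and 6.65 in aged libraries and at most 0.73 elsewhere. The other lower genes of this group were Sms (spermine synthase), Ganc (a glucosidase), Plin4 (a lipid droplet coat protein), Pnpla7, Ept1 and Abca8a.

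The largest group by number was cytoskeleton and adhesion, with 20 lower genes and 1 higher, medians of -3.77 and -3.84, and 5 lower genes without overlap. The share of this role among all measured genes is not known here. Pak7 (also Pak5), a p21-activated kinase of the family that Cdc42 binds and switches on, was the sole member from a list of 60 genes of the Cdc42 pathway and related GTPases. It was at 2.05, 4.24, 5.98, 5.10 and 7.03 in aged libraries, at the lowest value in all young libraries and CASIN 1 and 3, and at 1.90 in CASIN 2. The groups were only 0.15 apart. Cntn4, an adhesion protein of neurons, was at 4.86 to 6.94 in aged, at most 2.03 in young, and at 0.63, 2.46 and 3.82 in CASIN-treated libraries. Kank4, of a family that links adhesions to the cortex, was at 5.28, 7.08, 4.16, 1.53 and 7.23 in aged libraries and at most 0.93 elsewhere. Lphn2, an adhesion receptor, was at 1.80 to 8.17 in aged libraries, and 3.03 in young 4 fell within that range. The others were Fras1, Arap3, Parva, Slitrk6, Bai3, Adamts8, Sntg1, Col25a1, Mkln1, Map9, Myh15, Myl6, Mybpc2, Col6a5, Fat1 and Tecta. They include collagens (Col25a1 and Col6a5), proteins of the myosin filament (Myh15, Myl6 and Mybpc2) and the integrin partner Parva.

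Transcription and chromatin gave 15 lower genes with medians of -3.60 and -3.42. Erg, the ETS factor that HSCs need to maintain themselves, was at 1.37, 2.46, 7.12, 4.04 and 5.78 in aged libraries, at the lowest value in all young libraries and CASIN 1 and 3, and at 1.02 in CASIN 2. The gap between the groups was 0.36, and Erg was the sole member among 33 measured genes of HSC identity. Egr1, an immediate early factor that holds HSCs in the marrow, was at 5.72, 2.86, 3.89, 7.98 and 7.03 in aged libraries. It was at the lowest value in 3 young libraries and CASIN 1 and 3, but at 7.08 in young 4 and 5.28 in CASIN 2, both within the aged range. Gabpb2, a partner of an ETS factor, was at 5.72 to 8.61 in aged libraries, at 4.11 and 5.69 in young 2 and 3, and at 7.10 in CASIN 2. Ss18, a subunit of the BAF remodelling complex, was at 1.88 to 7.71 in aged libraries and at most 1.02 elsewhere. The others were Zmym4, Atxn1l, Zfp563, Tcf23, Zfp292, Ep400, Zbed6, Phf20l1, Kmt2c, Zscan20 and H2bfm. H2bfm belongs to the histone H2B family, Ep400 is a remodelling ATPase and Kmt2c a histone H3 methyltransferase.

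For RNA processing and translation, 9 genes were lower and none of them without overlap. Dcp1b, a subunit of the mRNA decapping complex, was at 5.07, 6.66, 7.81 and 6.44 in aged 0, 2, 3 and 5 but at the lowest value in aged 4, and at most 1.31 elsewhere. Bzw1, a regulator of translation start, was at 5.97 to 7.92 in aged libraries, yet also at 6.22 in young 4 and 5.27 in CASIN 2. The others included Nsun6, Rsrc1, Rbm3, Fastkd2, Rbm20 and Wdr36.

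For ubiquitin, autophagy and protein turnover, 8 genes were lower, 4 of them without overlap. Gabarapl2, an Atg8 protein of the autophagosome membrane, was at 6.98, 5.71, 7.12, 7.20 and 6.07 in aged libraries, 4.85, 2.50, 2.26 and 0.65 in young 2 to 5, and 0.63, 1.68 and 4.15 in CASIN-treated libraries. Its groups did not overlap, although 7 of 12 libraries were at 3 or more. Triml1 was at 1.57 to 5.44 in aged and at most 0.73 in other libraries. The others were Rnf122, Zfand5, Klhl42, Sumo3, Usp38 and Dcun1d1. Dcun1d1, a helper of neddylation, lies on chromosome 3 beside the higher member Atp11b, 35828 bases away, and these are the sole neighbouring members. The neighbours were listed in opposite directions.

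Of receptors, kinases and secreted factors, 9 were lower. Fzd7, a Wnt receptor and the sole member from 35 Wnt genes, was at 6.89, 5.63, 7.49, 8.22 and 5.51 in aged libraries. In young it was at the lowest value except for 3.11 in young 4, and in CASIN-treated libraries it was at 3.34, 6.40 and 0.58. CASIN 2 therefore lay within the aged values, and young minus CASIN was -2.21 (SE 1.26), the widest among the lower members. The others were C6, Csnk1g1, Ick, Asgr2, Akap11, Ldlrad4, Alk and Cxcl14.

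Channel and transporter genes numbered 7 (among them Tmem206, Unc13a, Kcnv1, Slc8a2, Chrna9 and Asic4), vesicle traffic 5 (Scoc, Tbc1d2b, Ap3m2, Clint1 and Dennd4b), and mitosis 2 (Ncapg2 of condensin II and the kinesin Kif14). The olfactory and vomeronasal receptor families gave 3 of 1405 measured genes (0.214%, beside 0.568% of all genes), Olfr1372-ps1, Olfr521 and Olfr893, which were at the lowest value in all young libraries and, for Olfr893, in 1 aged library too. The non-coding loci and those listed under a clone or predicted-gene name were Gm5523, Gm3696, Gm1995, Gm6213, Rab11fip4os1 and 4 RIKEN clones (4930481A15Rik, A830019L24Rik, 0610010F05Rik and 1110037F02Rik). Of these, Gm3696, 0610010F05Rik and 1110037F02Rik are protein coding in RefSeq. There 1110037F02Rik bears the name Virma, and it was grouped here by its clone name alone. Gm5523 had the largest difference in young, -5.95, with 6.00 to 8.12 in aged libraries and 7.28 in CASIN 3. The last 12, without an assigned role, were Gprin3, Aknad1, Saysd1, Spag1, Fam102a, Ibtk, Lmbrd2, Mptx1, Vash2, Skint3, Arrdc4 and Klhl29.

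Across the 109, 39 were at 3 or more in all 5 aged libraries, 43 in 4 of them, 25 in 3 and 2 in 2. In young 49 were below 3 throughout, and in CASIN-treated libraries 61. At the lowest value in all young libraries and in CASIN 1 and 3 stood 32 genes. The number of lower genes at 3 or more was 18, 21, 23 and 20 in young, 91, 83, 90, 87 and 95 in aged, and 9, 33 and 15 in CASIN 1 to 3. CASIN 2, which had the most genes above the lowest value, also had the most lower members among the CASIN libraries. Detection and the lower members moved the same way between young and aged as well, since aged libraries had more genes above the lowest value, and the part of detection in the result was not tested. The share of all genes at 3 or more was 27.0% to 30.5% in young, 30.1% to 30.8% in aged and 30.2% to 32.2% in CASIN-treated libraries. Quantile normalization keeps this share nearly alike in every library, so it does not show that detection was alike.

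Members came from the lists written for this tissue and treatment as single genes. The lists of HSC identity, HSC ageing (Egr1 of 28), the Cdc42 pathway, Wnt and the Kcnq1 domain (Kcnq1ot1 of 13) gave 1 each. The lists of the nuclear lamina (20 genes), histone H4K16 acetylation (24), Polycomb and DNA methylation (31), cell cycle (41), interferon and inflammation (39), autophagy with FoxO and mTOR (35), glycolysis and hypoxia (32) and other imprinted genes (26 measured) gave 0. A 0 holds only for the genes written into a list. Gabarapl2, of the autophagosome membrane, and the mitosis genes Ncapg2 and Kif14 are members that the lists did not hold. Over all pathway lists, 1 not described here included, 6 of 452 genes were members (1.33%), beside 128 of 22548 (0.568%). The median of the H4K16 acetylation list was 0.07 in young and -0.53 in CASIN-treated minus aged, and that of the lamina list was 0.78 and 0.00, beside -0.02 and -0.04 over all genes. No cytosolic ribosomal protein (of 98), respiratory chain subunit (of 93) or Hox gene (of 41), as matched by name, was a member. Genes of 20 chromosomes were among the 124 of 128 members matched to GENCODE, with the most on chromosomes 1 and 8 (12 each of 1203 and 1007 measured genes). Bai3 of chromosome 1 and Lphn2 of chromosome 3 are among the members that this count leaves out. The median exonic length was 4106 bases for the higher and 4574 for the lower members with a GENCODE entry, beside 2794 for all genes, and 89.5%, 93.3% and 90.3% were protein coding. Of the higher members 52.6% had a gene on the opposite strand, and 39.0% and 38.1% of the lower members and of all genes.

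To read the pattern in libraries that had no part in the choice, the rule was applied without each library in turn and the genes so chosen were read in the library left out. In the young library left out, 33.3% to 44.8% of the 26 to 29 genes chosen as higher were at 3 or more, and 35.0% to 45.0% of the 103 to 131 chosen as lower. The share of the higher set exceeded that of the lower set in 1 of 4 young libraries. In the CASIN-treated library left out the shares were 35.0% to 43.8% for higher and 41.6% to 56.9% for lower genes, and the higher set was ahead in 0 of 3. In the aged library left out they were 48.1% to 57.6% for higher and 39.4% to 45.0% for lower genes, with the higher set ahead in 5 of 5. Thus the sets as a whole did not carry their direction into the library left out, and both lay above the 27.0% to 32.2% of all genes. The level that a gene has in all groups enters these shares too, and its part was not tested.

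**Figure D4:**
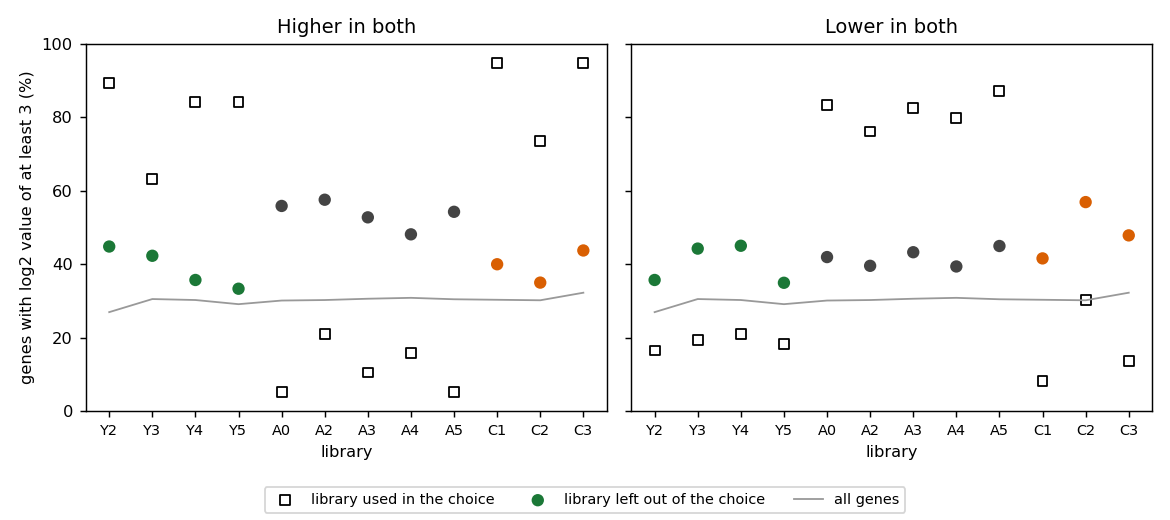
Percentage of genes at a log2 value of at least 3 in each library (Y young, A aged, C CASIN-treated) for genes higher in both (left) and lower in both (right). Open squares give the 19 or 109 members in libraries that helped to choose them, filled points give genes chosen without that library, and the grey line gives all genes. The squares part by group, from 5.3% to 94.7% on the left, while the filled points lie between 33.3% and 57.6%.

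Of the 19 higher genes, 3 were chosen whichever library was left out (Kcnq1ot1, 2700054A10Rik and Hnrnpk), and of the 109 lower genes 28 were, with Rnf122, Ahcy, Pcmtd2, Pdha2, Dcp1b, Kank4, Aknad1 and Pak7 among them. Being kept in every choice uses all 12 libraries, so this is a description of how firmly a gene met the rule. The median member was chosen in 9 of 12 cases on the higher and 10 on the lower side, and Fbxo41, St3gal2 and Egr1 in 5.

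The rule itself brings young and CASIN-treated HSCs together at the members, since both means had to lie beyond the same limit. The median of young minus CASIN was -0.43 for the higher and 0.05 for the lower genes, and 6 of 19 (31.6%) and 19 of 109 (17.4%) differed by more than 1 unit, beside 9612 of all genes (42.6%). The differences above 2 units were Hnrnpk (-2.31, SE 1.14) and Hsf5 (-2.21, SE 1.47), both with the higher mean in CASIN-treated HSCs, and Fzd7. In limma 0 of 128 members and 0 of all genes (0%) had an adjusted p under 0.05 between young and CASIN-treated HSCs, and 1 member and 968 genes had an unadjusted p under 0.05. With a median SE of 1.42 to 1.47 units, the values do not show that the groups are alike.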

How the data were processed

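The libraries were 4 of young, 5 of aged and 3 of CASIN-treated aged LT-HSCs, with groups and replicate numbers from the sample labels. The authors trimmed reads with trim galore (phred above 20), aligned them to mm10 with TopHat and used Cufflinks. The authors deposited log2 values after quantile normalization (seen from the shared distribution). The step from Cufflinks to these values is not given in the sources used here, and the depth is unknown.

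Members were found from group means of the deposited values (limit 3). The members, gene lists and rules were chosen with earlier results of these data known. limma 3.58.1 (R 4.3.3, lmFit, eBayes, Benjamini-Hochberg, 22548 genes, 12 libraries, 3 groups) gave errors and counts. Its code was tried on shuffled values in which some genes were moved further than nearly all members differ. Such a trial does not test differences of the members' size. P-values measure the spread between libraries, which the labels do not tie to animals. Genes are named by rank of the smaller difference, gap, closeness to the limit, list membership, young minus CASIN, family or neighbourhood. Remaining members are named with their role. Positions came from GENCODE M21 (124 of 128 matched) and promoters from RefSeq, GRCm38 (95 of 128, and 17479 of all genes). Alternatives were other floors, centring, filters, pseudocounts, limits, array weights, medians, a replicate block and each library left out. Figures used matplotlib 3.10.9. Values of a few members are not reported here by gene.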

Additional observations from a re-analysis of the deposited data

Results flagged for a closer look

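Tested were 92 groups of 4 or 5 libraries, for the 43 named genes and for a few measures of whole libraries. Of these groups, 14 held a library far from the others by Dixon's criterion, all 14 for genes, and chance gives about 1 in 20 such groups. In young HSCs, young 4 was high for 6 genes: Egr1 (7.08), Dcun1d1 (6.41), Fzd7 (3.11), Lphn2 (3.03), Cntn4 (2.03) and Asic4 (1.84), where the other 3 young libraries were at their lowest value. Young 5 was high for Ahcy (7.65), and young 3 for Pla2g4c (4.09) and Gm5523 (2.22). Young 2 was low for Kcnq1ot1 (15.61), which was 1 place lower in rank. In aged HSCs, aged 2 was high for Bcl6b (4.22) and Fbxo41 (5.47), aged 4 was high for St3gal2 (5.87), and aged 5 was low for Pla2g4c (1.84). The criterion is reached easily where the other libraries share nearly 1 lowest value.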

How the results depend on the processing

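Limit and scale both moved the numbers of members (19 higher, 109 lower). A limit of 2 gave 233 and 639, and a limit of 4 gave 2 and 16. Group medians gave 122 and 594, and a pseudocount of 0.1 gave 173 and 306. Centring on genes detected in all samples, which moved the median of all genes by 0.45 in young and 0.35 in CASIN-treated minus aged, gave 58 and 53. A mean of at least 3 left 53 of the lower genes. One common lowest value kept 15 and 99 of the members, centring 19 and 53. With 1 library left out the counts were 26 to 40 higher and 103 to 202 lower, the most without CASIN 2, and over 1.5 times the full number without young 2, aged 0, 2, 3 or 5 or any CASIN library (higher) and without any aged library or CASIN 2 (lower), while 25 to 36 members did not overlap in place of 24. Members called by limma then numbered 2 to 9 in young against aged (9 without aged 4, 5 without CASIN 3) and 2 to 6 in CASIN against aged (6 without aged 4), and 0 between young and CASIN. Deviations of same-numbered libraries were hardly correlated (r -0.03 to 0.06). Between aged and CASIN-treated libraries, both from aged mice, r was 0.06 for number 2 and 0.02 for number 3. Correlations this small do not tell whether mice were shared. The labels give no pairing, so the numbers are not taken as pairs. With the replicate number as a block, 48 genes were higher and 149 lower, of which 10 and 57 were members, and limma called 2 members in young (Kcnq1ot1 and 2700054A10Rik) and 1 in CASIN (Kcnq1ot1) against aged. Among single values of named genes, 25 moved by more than the spread between replicates and none changed direction; Egr1 in CASIN minus aged was -0.66 under the block. Depth is unknown, which limits every statement on a gene at the lowest value.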
